A study of Bos taurus with 16 samples.

Results

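The splicing factors described here are the SR proteins, the heterogeneous nuclear ribonucleoproteins (hnRNPs), the subunits of the SF3A and SF3B complexes and the U2AF subunits, as measured in the blood of dairy cows. The members were all array probes whose gene symbol in the deposited annotation begins with SRSF, SFRS, HNRP or HNRNP plus a letter or number, SF3A, SF3B, U2AF1 or U2AF2. They numbered 143 of 43653 probes and stood for 42 of the 17024 genes named on the array, with 1 to 8 probes a gene: 40 probes for 11 SR genes, 71 for 19 hnRNP genes, 25 for 9 SF3A and SF3B genes and 7 for 3 U2AF genes. Older symbols were updated, so that SFRS18 is given as PNISR, SFRS13A as SRSF10 and SF3B14 as SF3B6. HNRNPC was carried by 5 probes under a locus symbol that the rule does not reach, and it is not among the members.

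The study fed 5 lactating Holstein Friesian cows the FASTtrak microbial pack, a probiotic feed made from yeast and bacterial fermentation products, and kept 5 others on water for 60 days. RNA came from whole blood held for 30 min at 37 °C in 5% CO2, with a kit that lyses red and white cells differentially. The 4 groups were blood drawn at day 0 before the probiotic, blood of the probiotic cows at day 60, blood of the untreated cows at day 60, and blood of the probiotic cows at day 60 that also received 100 ng/ml of LPS, the bacterial lipopolysaccharide, in the tube. Whether the day 0 group also held blood of the untreated cows is not stated in the labels. RNA was pooled before labelling, and each group was hybridised to 4 one-colour arrays, 16 in all. The labels speak of pooled RNA and do not say whether the 4 arrays of a group share 1 pool. The SD and p-values below therefore cover the spread between arrays, which may be technical, and not that between single cows. Each group also lay on 1 slide of its own, so that slide and group cannot be told apart in any comparison. The arrays were scanned on 3 days: probiotic and LPS arrays shared a day, and day 0 and untreated arrays each had their own. Scan day therefore goes with group in every comparison except that of LPS with probiotic. In RNA of whole blood, fewer cells of a type and less RNA per cell cannot be told apart either.

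Introns are removed from nascent transcripts by the spliceosome, and the members act where it chooses its splice sites. U2AF binds the 3′ end of an intron, its large subunit U2AF2 on the polypyrimidine tract and its small subunit U2AF1 on the terminal AG, and helps to bring in the U2 ribonucleoprotein particle, whose SF3A and SF3B complexes hold it at the branch point. SR proteins carry RNA recognition motifs and a tail rich in arginine and serine, bind enhancer sequences in exons and favour the use of nearby splice sites, while many hnRNPs coat nascent RNA and repress them. In lymphocytes, HNRNPLL is known as a regulator of the variable exons of PTPRC, which encodes CD45. Its single probe was not well above background on any of the 16 arrays.

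The probes are 60 bases long, and 10 of them form 5 pairs in which both probes of a gene share a stretch of over 20 bases. These pairs are shown first because they put the same target sequence at different places on the array. In both pairs printed here, capitals mark the shared stretch and each probe is written 5′ to 3′ as in the deposited files. The U2AF2 probes lie in rows 421 and 486 of the 532 rows of spots, and the HNRNPH1 probes in rows 326 and 492.
U2AF2 A_73_P393201: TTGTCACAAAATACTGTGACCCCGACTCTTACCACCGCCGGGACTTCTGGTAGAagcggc
U2AF2 A_73_P204767: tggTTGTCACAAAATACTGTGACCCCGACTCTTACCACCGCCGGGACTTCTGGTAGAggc
HNRNPH1 A_73_P366676: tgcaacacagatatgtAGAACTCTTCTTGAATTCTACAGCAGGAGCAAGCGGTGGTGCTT
HNRNPH1 A_73_P319016: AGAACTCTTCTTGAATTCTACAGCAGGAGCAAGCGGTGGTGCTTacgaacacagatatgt

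The U2AF2 probes share 54 bases. The probe in row 421 was detected on none of the arrays, while the probe in row 486 was above it on 3 probiotic arrays and 2 LPS arrays. The HNRNPH1 probes share 44 bases, and the probe in row 326 was above background on 1 probiotic array and 3 LPS arrays, against 3 day 0, 4 probiotic and 4 LPS arrays for the probe in row 492. The remaining pairs belong to HNRNPAB, HNRNPH3 and HNRNPK and share 49, 33 and 31 bases. For HNRNPAB the probe in row 68 was above background on all 12 arrays outside the untreated group and that in row 244 on 4 of those 12. For HNRNPH3 the probe in row 150 was above background on 12 arrays in all and that in row 437 on none. The HNRNPK probes lie in rows 147 and 288, were above background on 5 and 6 arrays, and differed in which groups gave those arrays, since only the probe in row 288 was detected on probiotic arrays. In 3 of the 5 pairs, those of U2AF2, HNRNPAB and HNRNPH1, the probe nearer an edge of the array was detected on more arrays than its partner, and in the pairs of HNRNPH3 and HNRNPK it was detected on fewer. A probe can also be flagged as detected and still read at the floor of the scaled values explained further on, as the U2AF2 probe in row 486 did with probiotic and with LPS.

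**Figure D1:**
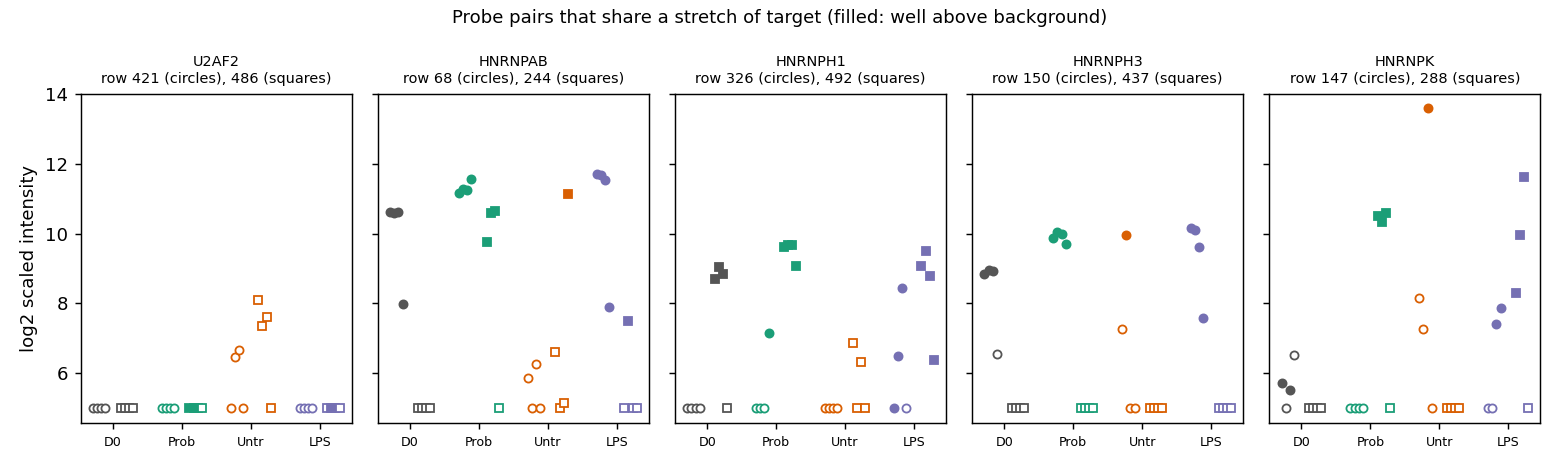
Log2 scaled intensity of both probes of each pair (circles and squares) on every array, by group: day 0 (D0), probiotic (Prob), untreated (Untr) and probiotic with LPS; filled points were well above background. The U2AF2 probe in row 421 and the HNRNPH3 probe in row 437 have no filled point, and their partners have 5 and 12.

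Place on the array is therefore given with the members described. The outer rows are rows 1 to 76 and 457 to 532, the first 2 and last 2 of 14 bands of equal width, and the inner rows are those between. Of the members, 46 probes lay in the outer and 97 in the inner rows. A probe counts as well above background, by the scanner software's own flag, without any scaling between arrays. In the outer rows, 41 of 46 members (89.1%) were well above background on all 4 probiotic arrays, against 48.5% of all probes there. The same count was 25 of 46 on the day 0 arrays (54.3%, all probes 14.7%) and 30 of 46 on the LPS arrays (65.2%, all probes 26.8%). On the untreated arrays it was 1 of 46 (2.17%, all probes 5.44%), and 35 of the 46 members were above background on none of the 4 (76.1%, all probes 70.6%). Counted array by array, 8.70% to 17.4% of the outer members were above background on the untreated arrays, against 13.5% to 18.9% of all probes there. The members' share was thus above that of all probes of the same rows in 3 groups and near it on the single untreated arrays, with no test of that difference.

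In the inner rows a minority of members was detected on all 4 arrays of any group. There 20 of 97 members were well above background on all 4 probiotic arrays and 17 of 97 on all 4 LPS arrays, with 2 on day 0 and 3 on the untreated arrays. All probes of the inner rows passed at 14.3%, 10.4%, 3.44% and 5.62% in these groups. Per array, the median share of inner members detected was 42.3%, 43.8%, 21.6% and 11.3% in the same groups. For all inner probes it was 25.7%, 27.5%, 12.6% and 14.8%. By role, the 17 outer SR probes were detected on all 4 arrays for 9 probes at day 0, 15 with probiotic, 0 untreated and 12 with LPS. The 17 outer hnRNP probes gave 9, 17, 1 and 12 in the same order, and the 9 outer SF3A and SF3B probes gave 5, 8, 0 and 4. On single untreated arrays 1 to 3 of the outer SR probes, 1 to 2 of the hnRNP probes and 0 to 2 of the SF3A and SF3B probes were detected. By contrast, 20 of the 46 outer members were well above background on every one of the 12 arrays outside the untreated group (43.5%, all probes 13.2%).

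The fourth array of several groups weighed on these counts. Per array, between 25 and 43 outer members were detected at day 0 and between 31 and 46 with LPS, and replicate 4 was the lowest in both. Without replicate 4 the members detected on every array of the group, outer and inner together, went from 27 to 60 of 143 at day 0, from 47 to 79 with LPS, from 4 to 9 untreated and from 61 to 83 with probiotic.

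**Figure D2:**
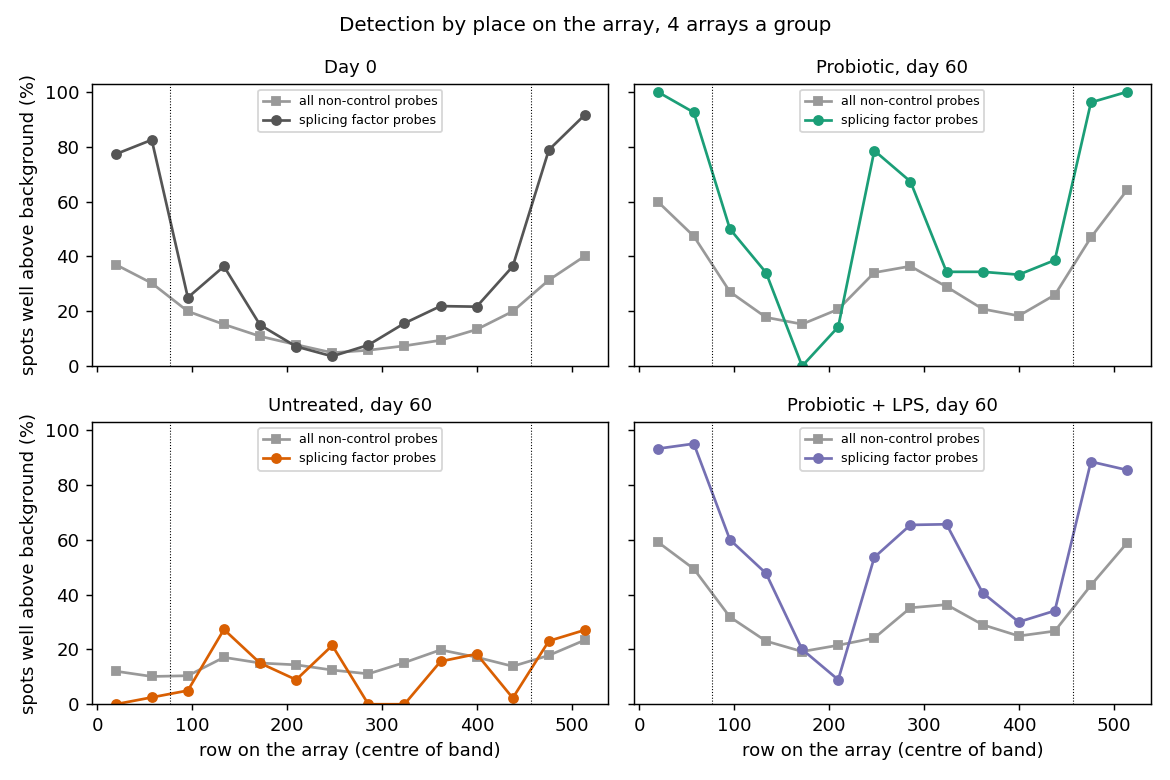
Percent of spots well above background (vertical axis) in each of the 14 bands of rows (horizontal axis, centre of the band), over the 4 arrays of a group, for the members (circles) and all probes (squares); dotted lines part the outer from the inner rows. In the first band 100% of the member spots were above background on the probiotic arrays (all probes 60.0%) and 0% on the untreated arrays (all probes 12.1%).

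A second measure without scaling is the percentile of each member's signal among all probes of the same band of rows on the same array. Over the 46 outer members the median percentile lay between 84.7 and 87.2 on the 4 day 0 arrays, between 87.8 and 88.8 on the probiotic arrays and between 83.9 and 87.9 on the LPS arrays. On the untreated arrays it lay between 41.0 and 55.9, close to the middle of the probes around them. For the 97 inner members the medians lay between 44.5 and 69.0 over all 16 arrays. By role, the outer SR probes had medians of 36.4 to 52.5 on the untreated arrays, the hnRNP probes 47.1 to 65.3 and the SF3A and SF3B probes 26.2 to 56.7, each below the medians of the same class on the other 12 arrays. The 3 outer U2AF probes spread from 31.6 to 97.8 there. Base composition moved with detection on the untreated arrays: among all probes, 9.44% of spots with under 40% GC were well above background and 25.9% of those with at least 50% GC. For the members the same shares were 9.47% and 22.2%. The members had a median GC of 40% against 45% for all probes, and the part of GC in their rank was not tested.

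**Figure D3:**
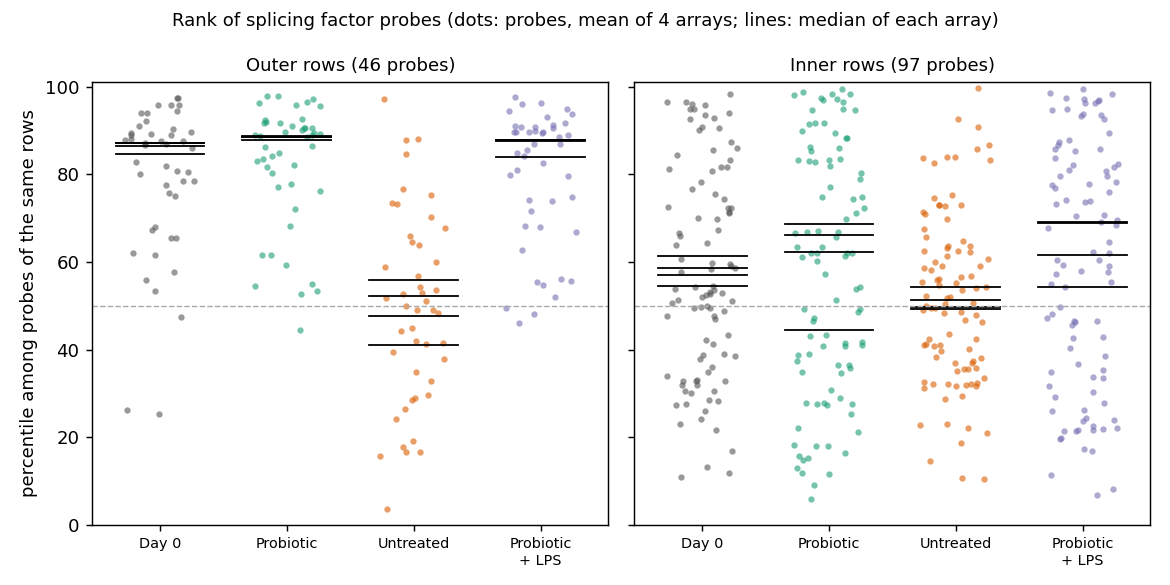
Percentile of each member among all probes of the same band of rows (dots, mean of the 4 arrays of a group) with the median of the members on each array (lines), for outer and inner rows. The lines of the 4 untreated arrays sit between 41.0 and 55.9 for the outer members, below the 12 other arrays, which sit between 83.9 and 88.8.

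Levels are given next as log2 of the background-subtracted intensity, with each array scaled on its 75th percentile over the 671 probes detected on all 16 arrays, and with values below a floor of 5.00 set to it. Of the 143 members, 69 probes of 37 genes passed the filter, which asked for a probe well above background on all 4 arrays of at least 1 group. They were 43 of 46 outer and 26 of 97 inner probes, and all 30 genes with an outer probe were among the 37. No probe passed for HNRNPLL, SF3A1, SF3B6, SRSF9 and U2AF1L4, none of which has a probe in the outer rows. A probe below that flag on every array of a group has only a bound there, and its fold is written "at least": the mean of the brighter group over the mean, in the dimmer group, of the higher of the probe's own value and the lowest detected signal of each array. A value at 5.00 has no order among others at 5.00.

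Among the SR proteins, SRSF2, which binds exonic enhancers, at its probe in row 22 read 8.30, 8.57, 8.46 and 8.43 on the day 0 arrays and 9.63, 9.67, 9.73 and 9.96 on the probiotic arrays. It read 9.75, 9.51, 9.47 and 10.89 with LPS and was at the floor of 5.00 on all 4 untreated arrays. The day 0 arrays lay below all probiotic and LPS arrays, and no untreated array was well above background. SRSF7, an SR protein with a zinc knuckle between its RNA recognition motif and its tail, at its probe in row 8 read 8.70, 8.84, 8.77 and 7.38 at day 0, 9.35, 9.38, 9.37 and 9.84 with probiotic and 9.31, 9.22, 9.13 and 8.64 with LPS, and was at 5.00 on all untreated arrays. The probiotic arrays were above every day 0 array. Another SRSF7 probe, A_73_P119986, ran the other way, at 9.96, 11.01, 10.45 and 5.00 untreated and at 5.00 on all probiotic arrays. It was well above background on every array of both groups but replicate 4, and did not pass the filter described above.

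The SR probes of SRSF6 and SRSF7 are printed here, and only the SRSF6 probe holds a long run of the codons typical of the family. In the SRSF6 probe the capitals mark 11 codons in a row that alternate between serine and arginine, part of the tail by which SR proteins are named.
SRSF6 A_73_P275511: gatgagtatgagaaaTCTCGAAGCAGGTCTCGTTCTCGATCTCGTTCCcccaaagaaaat
SRSF7 A_73_P260641: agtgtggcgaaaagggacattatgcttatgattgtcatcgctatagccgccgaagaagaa

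SRSF6 A_73_P275511, in row 490, read 9.66, 9.77, 9.91 and 8.65 at day 0, 10.26, 10.33, 10.32 and 10.78 with probiotic and 10.35, 10.19, 10.15 and 6.96 with LPS. On the untreated arrays it read 6.23, 5.56, 5.00 and 6.09, each below background and below all 12 other arrays. SRSF11, a serine and arginine rich protein that interacts with U2AF, read 8.56, 8.80, 8.83 and 8.33 at day 0 at its outer probe A_73_P110981, 9.65, 9.65, 9.72 and 10.17 with probiotic, 10.04, 9.93, 9.83 and 8.42 with LPS, and 5.52, 5.00, 5.00 and 5.00 untreated. The lowest array outside the untreated group, at 8.33, was far above the highest untreated one. A second outer probe of SRSF11, A_73_P386286, averaged 9.31 ± 0.21 (SD, n = 4) with probiotic and 5.29 ± 0.58 (SD, n = 4) untreated, and the inner probe A_73_P359766 averaged 8.86 ± 0.11 and 6.06 ± 0.61 (SD, n = 4 each). A_73_P034026 read 9.65, 9.94, 9.86 and 9.63 with probiotic and 7.22, 9.63, 5.00 and 5.03 untreated. Another SRSF11 probe, A_73_P323251, ran the other way, at 7.16, 7.00, 11.16 and 6.69 untreated and at 5.00 on all probiotic arrays. Of these arrays only untreated replicate 3 was well above background, and the probe did not pass the filter.

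Of the SF3 subunits, SF3B5, the smallest subunit of SF3B, has 1 probe, in row 487. This probe read 10.93, 11.03, 11.20 and 11.35 at day 0, 11.06, 11.12, 11.12 and 11.53 with probiotic and 11.48, 11.24, 11.25 and 11.28 with LPS. On the untreated arrays it read 5.00, 5.06, 5.00 and 5.00, below background on all 4, while the other 3 groups overlapped. SF3A3, a subunit of SF3A, at its probe in row 53 read 9.36, 9.50, 9.43 and 8.79 at day 0, 10.32, 10.40, 10.34 and 10.90 with probiotic, 10.67, 10.38, 10.39 and 10.62 with LPS, and 5.64, 5.00, 5.00 and 5.00 untreated. All probiotic arrays stood above all day 0 arrays, and the LPS arrays overlapped with the probiotic ones.

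SF3B1, the large subunit of SF3B that lies at the branch point, was carried by 8 probes, of which 4 passed the filter. At A_73_P094776, in row 79, it read 10.73, 10.76, 10.59 and 6.64 at day 0, 11.25, 11.39, 11.18 and 10.73 with probiotic, 6.69, 5.70, 5.24 and 5.00 untreated, and 11.79, 11.95, 11.47 and 8.07 with LPS. Replicate 4 at day 0 was not well above background and overlapped with the untreated arrays. At A_73_106327, in row 158, it read 7.71, 5.23, 6.96 and 5.00 at day 0 and 7.86, 8.52, 7.87 and 6.89 with LPS, and was at 5.00 on all probiotic and all untreated arrays. SF3B1 thus reads as a detected gene on the probiotic arrays at the first of these probes and below background on them at the second. SF3B3, another large subunit, ran the other way at its inner probe A_73_P274036 in row 358: it was at 5.00 on all day 0 arrays and averaged 5.01 ± 0.01 with probiotic, 5.81 ± 1.61 with LPS and 9.47 ± 0.83 untreated (SD, n = 4 each). Of its other 4 probes only A_73_P393767, in row 505, passed the filter.

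Among the hnRNPs, HNRNPAB A_73_114898, a probe in row 68 for an hnRNP of the A/B class, read 10.63, 10.60, 10.62 and 7.998 at day 0, 11.17, 11.30, 11.25 and 11.56 with probiotic, 11.71, 11.67, 11.56 and 7.89 with LPS, and 5.87, 5.00, 6.28 and 5.00 untreated. Replicate 4 was the low array at day 0 and with LPS, but still above all untreated arrays. HNRNPA1, which represses splice sites and shuttles between nucleus and cytoplasm, read at A_73_P093036, in the inner row 443, 9.17, 9.37, 9.41 and 10.17 at day 0, 9.59, 9.70, 9.75 and 10.18 with probiotic, 9.76, 9.54, 9.43 and 10.17 with LPS and 5.00, 5.81, 5.00 and 5.00 untreated. Day 0, probiotic and LPS arrays overlapped, and the untreated arrays lay below all of them. HNRNPM A_73_P154207, in row 521, averaged 9.36 ± 0.19, 9.73 ± 0.27 and 9.40 ± 0.38 in those groups and 6.82 ± 0.91 untreated (SD, n = 4 each).

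HNRNPUL1, a relative of HNRNPU, was the member gene with a probe detected on all 16 arrays, A_73_P320691 in row 526. It read 11.84, 11.99, 12.08 and 11.09 at day 0, 12.12, 12.32, 12.30 and 12.80 with probiotic, 11.89, 10.78, 13.58 and 10.51 untreated and 12.31, 12.26, 12.19 and 8.25 with LPS. The 4 groups overlapped, and the untreated arrays spread over more than 3 log2 units. HNRNPL, which binds CA repeats, read at its inner probe A_73_P276393 5.00 on all day 0 arrays, 5.91, 5.00, 5.00 and 5.42 with probiotic, 9.94, 8.38, 9.24 and 9.30 untreated and 5.15, 5.00, 5.08 and 5.00 with LPS. The 4 untreated arrays lay above all 12 others. At the SF3B3 probe in row 358 they did too, but LPS replicate 3, at 8.22, came close to the lowest of them, at 8.28.

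HNRNPDL, an RNA-binding protein of the hnRNP D family, had probes that went in opposite directions. The sequences of its 2 coding probes that were higher with probiotic are given as the files have them.
HNRNPDL A_73_P302357: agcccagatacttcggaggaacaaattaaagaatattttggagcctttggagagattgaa
HNRNPDL A_73_P177532: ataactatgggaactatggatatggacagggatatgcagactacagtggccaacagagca

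HNRNPDL A_73_P302357, in row 20, read 9.31, 9.43, 9.46 and 8.66 at day 0, 9.20, 9.26, 9.26 and 9.83 with probiotic and 5.00 on all untreated arrays. With LPS it read 9.47, 9.36 and 8.15 on 3 arrays, since the spot on replicate 1 was flagged as an outlier and left out. HNRNPDL A_73_P278691, in row 496, read 5.52, 5.74, 5.63 and 5.00 at day 0, 6.10, 6.01, 6.12 and 6.61 with probiotic, 6.88, 7.54, 8.01 and 8.09 untreated and 6.04, 6.11, 6.20 and 5.00 with LPS. At the first probe the untreated arrays were the lowest and at the second the highest, though only 2 of these 4 were well above background.

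For the U2AF subunits, U2AF2 A_73_120934, in row 264 at the middle of the array, read 10.20, 5.00, 5.00 and 5.00 at day 0, 12.43, 12.36, 12.42 and 10.05 with probiotic, 12.90, 12.12, 12.65 and 12.46 untreated and 11.39, 11.79, 11.26 and 10.90 with LPS. On day 0 only replicate 1 was well above background. In that band of rows 4.87% of all spots were above background on the day 0 arrays, against 34.1% on the probiotic, 12.5% on the untreated and 24.2% on the LPS arrays. U2AF1 A_73_110193 averaged 10.58 ± 1.90 at day 0, 10.79 ± 0.32 with probiotic, 9.53 ± 3.03 untreated and 9.71 ± 1.84 with LPS (SD, n = 4 each), and its groups overlapped.

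**Figure D4:**
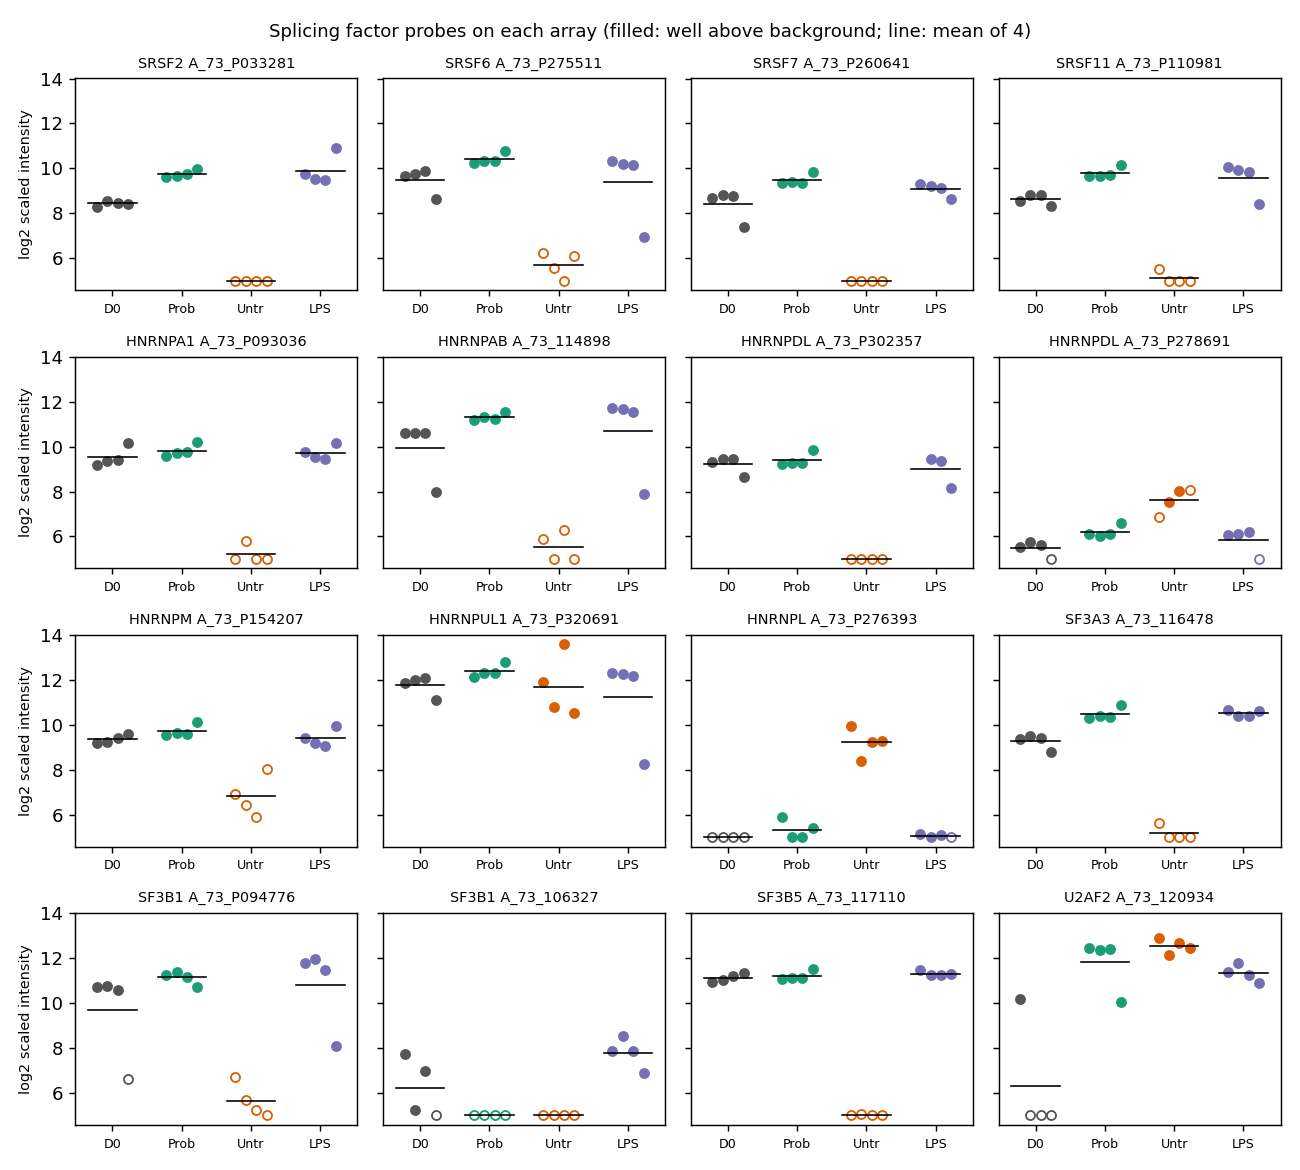
Log2 scaled intensity of 16 member probes on each of the 16 arrays, by group: day 0 (D0), probiotic (Prob), untreated (Untr) and probiotic with LPS; filled points were well above background, and lines are means of the group. SF3B5 stands between 10.93 and 11.53 on the 12 arrays outside the untreated group and between 5.00 and 5.06 on the untreated arrays, and HNRNPL shows the opposite order.

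The first comparison asks how blood of the probiotic cows differed from that of untreated cows at day 60. By limma's moderated test with Benjamini-Hochberg adjustment over 12198 probes, 42 of the 69 tested members were at least 2-fold higher with probiotic at an adjusted p under 0.05, and 3 were lower. Over all probes tested, 30.8% were called higher and 28.7% lower. A probe detected in 1 group alone could enter the test through that group and then had to differ, so these counts are a description. The rises comprised 15 of 20 SR probes, 20 of 32 hnRNP probes and 7 of 14 SF3A and SF3B probes, and none of 3 U2AF probes. They fell on 28 of the 37 genes tested, among them 9 of 10 SR genes (SRSF2, SRSF3, SRSF4, SRSF5, SRSF6, SRSF7, SRSF10, SRSF11 and PNISR). A gene was counted if any of its tested probes rose, and the share over all genes was not computed. Untested probes of SRSF5, SRSF7 and SRSF11 ran the other way. That of SRSF5, A_73_113378, read 7.26, 8.71, 7.53 and 9.56 untreated, above background on replicates 2 and 4, and 5.00 on all probiotic arrays. The median difference was 2.68 log2 units over the members and 0.10 over all probes tested.

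Most of these rises were at probes that could not be read on the untreated arrays. Of the 42, 37 were not well above background on any untreated array, and for them the bound lay between 1.09-fold and 10.5-fold with a median of 2.70 over 32 probes, while the remaining 5 allowed no fold. With each dim probe at its bound the members' median difference was 0.70. When the floor was set at the highest of the arrays' lowest detected signals, 22 members passed in place of 45. Among the 3 members detected on all arrays of both groups, HNRNPL A_73_P276393 was called lower, and 0 higher by limma (all such probes 7.18% higher and 74.4% lower). The untreated arrays had their lowest detected signal at 7.38 to 8.30 on the scaled log2 axis, above the floor used for all arrays.

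SF3B5 was at least 9.78-fold higher with probiotic than untreated (fitted difference 6.19 ± 0.15 SE, limma adjusted p = 4.5e-12). HNRNPAB A_73_114898 was at least 10.5-fold higher (5.78 ± 0.80 SE, limma adjusted p = 2.74e-05) and SF3B1 A_73_P094776 at least 9.31-fold (5.48 ± 0.96 SE, limma adjusted p = 0.000214). For SF3A3 the bound was 5.94-fold, for SRSF6 5.67-fold, for SRSF2 3.55-fold, for HNRNPA1 A_73_P093036 3.70-fold, for SRSF11 A_73_P110981 3.68-fold and for HNRNPM 3.52-fold, with limma adjusted p between 1.28e-10 and 1.78e-05. In the authors' deposited table of group averages none of these 9 probes differed by 2-fold: HNRNPM stood at -0.21, SRSF11 at -0.10, SRSF2 at -0.03, SF3A3 at 0.0015, and the highest, SRSF6, at 0.62. All 9 of these calls held in the 8 fits that left out 1 array of either group. None of the 9 was well above background on any untreated array. Each such fit thus set detected against undetected values again, and its outcome is given as a description. HNRNPUL1, detected on every array, differed by 0.70 ± 0.84 SE (limma adjusted p = 0.487) and by -2.74 after cyclic loess (adjusted p = 0.00175).

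The 3 members lower with probiotic were SF3B3 A_73_P274036 by -4.46 ± 0.61 SE (limma adjusted p = 2.47e-05), HNRNPL A_73_P276393 by -3.88 ± 0.28 SE (adjusted p = 4.43e-08) and HNRNPDL A_73_P278691 by -1.42 ± 0.32 SE (adjusted p = 0.00161). The first 2 lie in inner rows, where all probes gave 2541 falls and 1153 rises among 6108. The third turned to 0.39 when arrays were scaled on the 75th percentile of all probes. SF3B3 A_73_P274036 had entered the test through the untreated arrays alone and read at or close to the floor with probiotic, so its p is given as a description. The other 3 tested HNRNPDL probes that passed had differences of 4.39, 2.93 and 2.78. In the outer rows 32 of 43 tested members rose and 1 fell (all probes 42.8% and 15.8%), and in the inner rows 10 of 26 rose and 2 fell (all probes 18.9% and 41.6%). In both zones the members' share of rises was above that of all probes, with no test of that difference. Scaled and fitted on the outer rows alone, 30 of 43 rose and 2 fell (all probes 36.8% and 18.9%).

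Among the 10 outer members without a call, PNISR A_73_P103851, SRSF3 A_73_P047421, SF3B4 A_73_P091016, HNRNPM A_73_P454256 and HNRNPU A_73_P465218 had limma adjusted p between 0.403 and 1, although 4 of these 5 genes, all but HNRNPU, had a further outer probe that rose. A scaling on the 75th percentile of all probes moved the median difference of all tested probes by 0.95 log2 units in this comparison and the share of rises among all calls from 51.8% to 72.1%. The members' share of rises was 93.3% and lay between 86.0% and 96.0% under the 7 other scalings and row settings run. In the authors' deposited averages, by contrast, every tested member past 2-fold was lower with probiotic.

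The second comparison sets the probiotic cows at day 60 against day 0. Here 9 of 69 members rose and 0 fell by limma, with 5.80% of all probes called higher and 0.992% lower. At an unadjusted limma p under 0.05, 19 of 69 members were higher and 1 lower, against 2331 and 512 of the 12198 probes tested. The rises were 4 SR probes, 3 hnRNP probes, 1 SF3A probe and 1 U2AF probe in 8 genes, and the median difference was 0.82 over the members and 0.38 over all probes. SRSF2 rose by 1.31 ± 0.26 SE (limma adjusted p = 0.00883), SF3A3 by 1.22 ± 0.22 SE (adjusted p = 0.00515) and HNRNPAB A_73_P262856 by 1.14 ± 0.21 SE (adjusted p = 0.0066), each in probes detected on all 8 arrays. These 3 calls and that of U2AF2 held when any 1 array was left out.

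U2AF2 A_73_120934 had the largest fitted difference of the 9, 5.51 ± 0.97 SE (limma adjusted p = 0.00479), against a day 0 group with 1 detected array. The other rises, HNRNPH1 A_73_113468 (4.22), SRSF11 A_73_P359766 (1.70) and A_73_P110981 (1.17), HNRNPDL A_73_P042761 (1.24) and SRSF7 (1.07), were lost in 4 to 8 of the 8 fits that left out 1 array. The count was 4 without day 0 replicate 4 and without probiotic replicate 1, 2 or 3, 5 without day 0 replicate 1 or 3, and 6 or 7 without the remaining ones. It was 3 of 43 in the outer rows fitted alone (all probes 3.46% higher and 0.443% lower), 1 after cyclic loess, 2 after normexp with quantile normalization, and 41 with the software's processed signal, which had been multiplied by a factor on 3 of the 4 day 0 arrays. In that last setting 37 rose and 4 fell. SRSF11 A_73_P110981, SF3A3 and HNRNPH1 A_73_113468 had differences of -0.15, -0.34 and -2.23 in the authors' deposited table, and the other 6 were above 0 there.

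The third comparison asks what LPS in the tube did to blood of the probiotic cows. Only SF3B1 A_73_106327 in row 158 passed among the 69 members (0.394% of all probes higher, 0.0328% lower): it was at least 6.87-fold higher with LPS (fitted difference 2.78 ± 0.51 SE, limma adjusted p = 0.0304) and not well above background on any probiotic array. It had entered the test through the LPS arrays alone and was at the floor on all 4 probiotic arrays, so the p sets it against values with no spread of their own and is given as a description. The call was lost in 7 of the 8 fits that left out 1 array, with an adjusted p of up to 0.109, all but the one without LPS replicate 4. The other tested SF3B1 probes had differences of -0.32, -0.22 and -0.83, with limma adjusted p between 0.970 and 0.996. No member fell. At an unadjusted p under 0.05 limma gave 2 of 69 members higher and 0 lower, near the shares of all probes (390 higher and 165 lower of 12198). The median difference was -0.37 over the members and -0.03 over all probes, and LPS replicate 4 was the lowest array of its group for HNRNPAB A_73_114898, SRSF6 and SF3B1 A_73_P094776, as given above.

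The fourth comparison, untreated cows at day 60 against day 0, shares its groups with the first and second and adds no independent arrays. In it 31 members fell and 6 rose, with 20.5% of all probes called lower and 28.9% higher. In the outer rows 26 of 43 members fell and 2 rose (all probes 30.5% and 17%), and in the inner rows 5 of 26 fell and 4 rose (all probes 10.5% and 40.8%). The falls took in 12 of 20 SR, 13 of 32 hnRNP and 6 of 14 SF3A and SF3B probes. Of the 31, 30 were not well above background on any untreated array, and 21 of them allowed a bound, between 1.04-fold and 9.24-fold with a median of 1.97. SF3B5 was at least 9.24-fold lower (fitted -6.11 ± 0.15 SE, limma adjusted p = 7.13e-12), HNRNPAB A_73_114898 at least 4.12-fold, SF3B1 A_73_P094776 at least 3.39-fold, HNRNPA1 A_73_P093036 at least 3.06-fold and SRSF6 at least 2.99-fold lower. The members' median difference was -1.46 as fitted and 0 with each dim probe at its bound, since 48 of the 69 were dim in at least 1 of the groups.

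Of the 6 members higher in the untreated cows, SF3B3 A_73_P274036 was at least 14.2-fold and HNRNPL A_73_P276393 at least 11.9-fold above day 0, where neither was detected. The SF3B3 probe had entered the test through the untreated arrays alone, so its fold is given as a description. U2AF2 A_73_120934 was higher by 6.23 ± 0.97 SE (limma adjusted p = 8.83e-05) and HNRNPDL A_73_P278691 by 2.16 ± 0.32 SE (adjusted p = 5.63e-05). HNRNPUL2 gave opposite calls: A_73_P407149 rose by 1.84 ± 0.55 SE (limma adjusted p = 0.0121) but was not well above background in either group, and A_73_P061401 changed by -1.44 ± 0.58 SE (adjusted p = 0.0498), a call lost in 7 of 8 fits without 1 array. Scaling on the 75th percentile of all probes moved the median of all probes by -1.17 here and the share of rises among all calls from 58.5% to 28.7%; the members' share went from 16.2% to 6.82%. With the floor at the highest of the arrays' lowest detected signals 7 members passed.

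**Figure D5:**
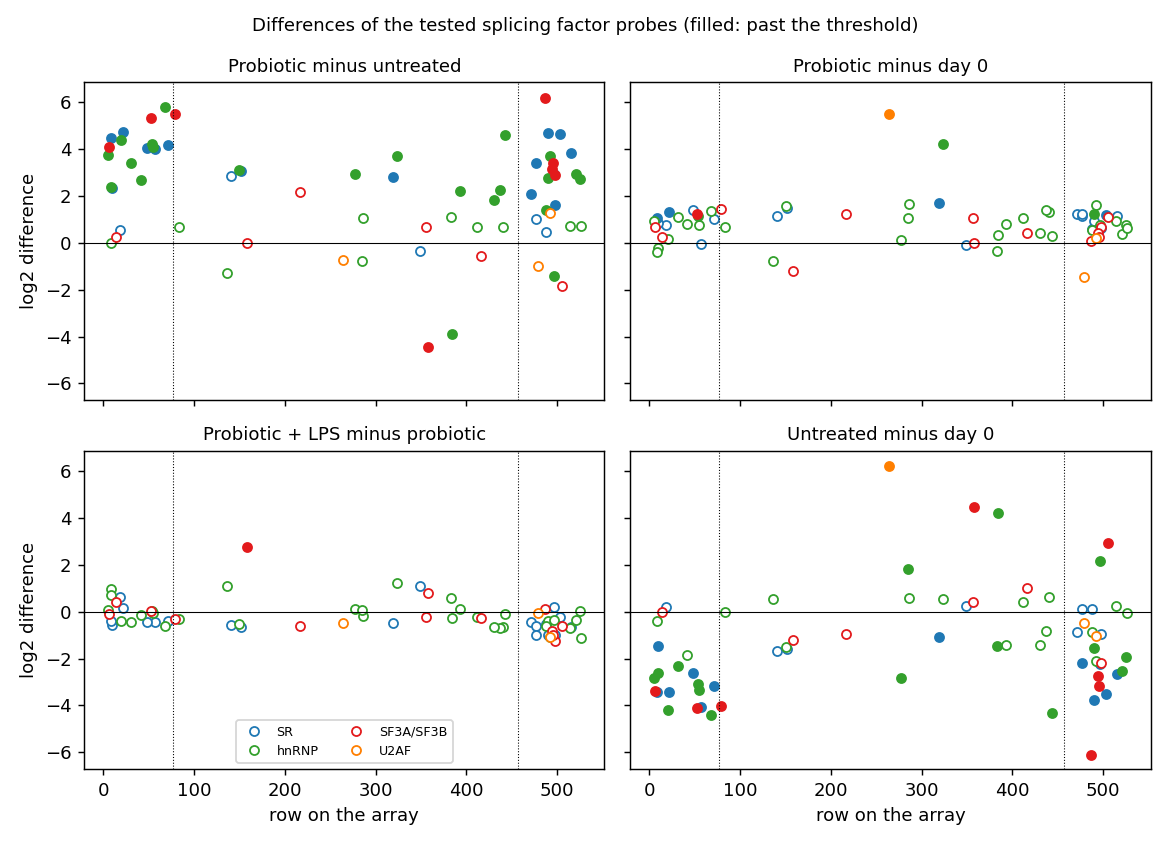
Fitted log2 difference of the 69 tested member probes (vertical axis) against their row on the array (horizontal axis) in the 4 comparisons, coloured by class; filled points passed the threshold, and dotted lines part outer from inner rows. Of the outer probes 32 rise and 1 falls in probiotic minus untreated, and 1 probe passes in probiotic with LPS minus probiotic.

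The rest of the splicing machinery was read from 4 further lists. Spliceosome core genes (52 genes on the array, 47 probes tested) gave 20 rises and 9 falls in probiotic minus untreated, where all probes gave 30.8% and 28.7%. There PHF5A, which sits in SF3B beside SF3B1, was at least 7.28-fold higher and PRPF4, a protein of the U4/U6 particle, at least 6.02-fold higher. SNRPD2, an Sm core protein, differed at A_73_120226 by -4.31 (limma adjusted p = 5.68e-05) and SF1, which binds the branch point before the U2 particle, by -3.84 (adjusted p = 1.89e-05), both at inner probes. The 22 outer probes of this list gave 14 rises and 0 falls by limma (all outer probes 42.8% and 15.8%), and the 25 inner probes gave 6 rises and 9 falls (all inner probes 18.9% and 41.6%).

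Kinases and phosphatase partners of SR proteins (8 genes on the array, 12 probes tested) gave 5 rises and 1 fall in that comparison. SRPK2, which phosphorylates the arginine and serine tail, was at least 4.22-fold higher, while CLK3, a nuclear kinase of SR proteins, was at least 7.31-fold higher at A_73_P273706 and differed by -1.58 at A_73_116683. Other splicing regulators (30 genes on the array, 35 probes tested) gave 17 rises and 3 falls. Among them SON, a nuclear speckle protein, was at least 19.9-fold higher, and TIA1 differed by -2.42. Exon junction and export factors (17 genes on the array, 15 probes tested) gave 4 rises and 4 falls, near the shares of all probes. Among these EIF4A3 was at least 5.26-fold higher and THOC3 stood at -4.11. Against day 0, the probiotic arrays had rises at 5 of 47, 1 of 12, 6 of 35 and 0 of 15 probes in these 4 lists and 0 falls by limma. All probes gave 5.80% higher and 0.992% lower there. LPS gave no call in any of the lists, where all probes gave only 0.394% higher and 0.0328% lower. In the outer rows the median same-row percentile of the 4 lists lay between 21.1 and 75.4 on the untreated arrays and between 54.8 and 93.0 on all others.

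Low detection on the untreated arrays was shared by some other gene lists and not by all. On average 15.2% ± 3.06 of all probes were well above background on them (SD, n = 4 arrays). The same share was 17.9% ± 6.59 at day 0, 32.9% ± 4.70 with probiotic and 34.4% ± 8.53 with LPS (SD, n = 4 arrays each). The 4 untreated arrays lay within the day 0 range of 8.26% to 23.0%, but its low end was replicate 4 alone. The other day 0 arrays read 19.5% to 23.0%, above the highest untreated array at 17.9%. Of 49 blood cell marker genes on the array, from 8 lists, 12 were detected on all 4 untreated arrays, against 22 at day 0, 30 with probiotic and 26 with LPS. T cell markers were on all 4 arrays for 1 of 7 genes untreated and 3, 7 and 5 of 7 in the other groups, with a median same-row percentile of 40.3 to 54.7 untreated and 81.8 to 90.5 elsewhere. Neutrophil markers gave 2 of 9 untreated and 6 of 9 in each other group, with S100A9, an abundant calcium-binding protein of that cell, not detected on any untreated array and S100A8, its partner, on none of the untreated or the day 0 arrays. Platelet markers gave 0 of 4 untreated and 1, 3 and 1 of 4 elsewhere. The summed level of the T cell markers lay at 10.95 to 12.05 log2 units on the untreated arrays and at 12.8 to 14.2 on the others, while B cell markers overlapped, at 13.1 to 14.3 and 12.6 to 13.8. General leukocyte markers ran the other way in part, at 12.3 to 15.1 untreated and 9.56 to 12.9 elsewhere, with 1 of 4 genes on all 4 untreated arrays and 1, 2 and 1 in the other groups. The part of cell mixture and of array signal in the members' values was not tested.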

How the data were processed

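Agilent one-colour arrays of 16 samples were read from the deposited scanner output. The authors' intensity columns came from Agilent Feature Extraction 10.10.1.1, per the submitters' processing notes, and the detection and outlier flags used are other columns of the same deposited files. The log2 group averages are the authors' deposited table; its scale and centring are not stated (column medians -0.83 at day 0, 0.26 with probiotic, 0.42 untreated and 0.01 with LPS). Genome build was not given in the sources used here.

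Computed here, from the background-subtracted intensity (before the software's detrending): outlier spots were left out, spots of a probe averaged, and each array scaled on its 75th percentile over the 671 probes well above background on all 16 arrays. Values were then floored at 5.00 and taken to log2. Probes well above background on all 4 arrays of at least 1 group (12198 of 43653) were fitted with limma 3.58.1 (R 4.3.3) over all 16 arrays, and passed where limma's p, adjusted by Benjamini-Hochberg over the tested probes, was under 0.05 and the change was 2-fold or more. The script was tested on simulated data. The mean signal and the detrended signal were not used here, so normexp took median signals and the detrending factor was inferred. Symbols were updated through RefSeq: 127 members by accession, 13 by symbol and 3 by synonym.

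Members, lists and tests were chosen with earlier results of these data known. Named are, per comparison, up to 8 probes that passed with the largest difference in each direction (1 a gene), those detected on all 16 arrays, those detected on all 4 arrays of a group and none of another (the 8 highest by mean rank), and genes whose probes passed in opposite directions. From the other lists up to 4 a comparison qualified; the examples given are among them. The outer members without a call, U2AF1, the shared pairs and the remaining SF3B1 probes were picked after their values were seen. So were SRSF11 A_73_P034026 and the SRSF5, SRSF7 and SRSF11 probes that ran the other way. The number of arrays, 4 a group, limits the precision.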

Additional observations from a re-analysis of the deposited data

Results flagged for a closer look

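Among the named probes, 73 groups of 4 arrays with all values above the floor were checked for an array that stands apart from the other 3, by a gap over 0.829 of the group's range. There were 27 such arrays, and chance alone marks about 1 in 20 groups. All but 1 were replicate 4 of a group. The exception is SRSF11 A_73_P359766 on untreated replicate 3, which read 5.16 and lay below the other 3.

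On day 0 replicate 4 the probes were low: HNRNPAB A_73_114898 read 7.998, SF3B1 A_73_P094776 6.64, SRSF11 A_73_P359766 6.21, SRSF7 7.38 and HNRNPA3 A_73_P192928 5.81.

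On LPS replicate 4, HNRNPAB A_73_114898 read 7.89, SF3B1 A_73_P094776 8.07, SRSF6 A_73_P275511 6.96, SRSF11 A_73_P110981 8.42 and A_73_P359766 7.22. HNRNPDL A_73_P042761 read 6.73, HNRNPUL1 A_73_P320691 8.25 and HNRNPA3 A_73_P192928 7.30, all lowest of their group. HNRNPAB A_73_P262856 at 9.83 and HNRNPA1 A_73_P054926 at 10.87 were the highest there.

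On probiotic replicate 4 several probes were the highest of the group: SF3B5 at 11.53, SF3A3 at 10.90, SRSF6 A_73_P275511 at 10.78, SRSF11 A_73_P110981 at 10.17 and A_73_P386286 at 9.62. HNRNPDL A_73_P302357 at 9.83, SRSF7 at 9.84 and HNRNPM A_73_P154207 at 10.13 were the highest too. HNRNPDL A_73_P177532 at 6.95, U2AF2 A_73_120934 at 10.05 and HNRNPA1 A_73_P054926 at 6.95 were the lowest of that group.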

How the results depend on the processing

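Each group lies on 1 slide of its own and was labelled from pooled RNA, so no setting separates group from slide or pool, and depth is limited by signal: 15.2% of probes were well above background on the untreated arrays. Fits on outer rows only, without the 4 detrended arrays, and percentiles within bands were chosen after seeing the data. Where a count moved, the cause was not tested, except that filters and outer rows change how many probes are tested.

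In probiotic minus untreated (45 members, 7267 of all probes), the highest floor gave 22 and 2644. Probes detected on all arrays of both groups gave 1 and 1488, with a members' median of -0.72. No filter gave 11188 of all probes and outer rows 3394. The authors' deposited averages gave 10 members and 2411 probes past 2-fold, and all 10 of these members were lower with probiotic. The members' median there was -0.16, with -0.033 for SRSF2, -0.10 for SRSF11 A_73_P110981, -0.088 for HNRNPDL A_73_P302357 and -0.16 for A_73_P042761. HNRNPDL A_73_P278691 turned to 0.39 with the 75th percentile of all probes, and HNRNPUL1 to -2.74 after cyclic loess.

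In probiotic minus day 0 (9 members), the detrended processed signal gave 41 members and 6047 probes, normexp with quantile 2 and 377, the 75th percentile of all probes 2 and 544, quantile normalization 3 members, cyclic loess 1 and 128, and the highest floor 5 and 136. Detection in both groups gave 3 and 101 of all probes, no filter 5 and 364, a fit of the 2 groups alone 14 and 1597, outer rows 3 and 238, and the authors' deposited averages 40 and 8410. There HNRNPH1 A_73_113468 was at -2.23 and SF3A3 at -0.34.

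In LPS minus probiotic (1 and 52), the detrended processed signal gave 95 of all probes and the signal before detrending 112. Members numbered 0 by limma with the 75th percentile of all probes, the median of detected probes and cyclic loess (23 of all probes). They also numbered 0 by limma with the highest floor (3) and no filter (18). Detection in both groups (18) and outer rows (3) gave 0 by limma as well, but these settings left out SF3B1 A_73_106327. That probe lies in an inner row and was not detected on any probiotic array. The authors' deposited averages gave 53 and 8215.

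In untreated minus day 0 (37 and 6026), the detrended signal gave 18 members, the highest floor 7 and 2055, detection in both groups 0 and 548 by limma, no filter 9393 probes and outer rows 2858. The authors' deposited averages gave 9308 probes, a median of 0.90, and 0.47 for HNRNPA1 A_73_P093036, 2.09 for HNRNPDL A_73_P042761 (0.71 with the detrended signal) and 3.23 for HNRNPUL1 (2.89 after cyclic loess).

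Leaving out 1 array gave 41 to 48, 4 to 7, 0 to 1 and 33 to 43 members in the 4 comparisons in the order above, and 6756 to 7688, 405 to 825, 24 to 65 and 5302 to 6465 of all probes. Members detected on every array ran from 27 to 60 at day 0, 61 to 83 with probiotic, 4 to 9 untreated and 47 to 79 with LPS, and their median percentile among all probes from 71.8 to 74.6, 75.3 to 81.0, 49.6 to 51.7 and 72.9 to 80.3. Without the 4 detrended arrays the members numbered 47, 6, 1 and 38.

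The replicate numbers do not pair the arrays: over 24 pairs of equal number the correlation of deviations ran from -0.25 to 0.68 and exceeded 0.1 in 7, and 6 of 16 arrays correlated best with their own number. A replicate block gave 5 members in probiotic minus day 0 and 0 in LPS minus probiotic (33 of all probes), and moved neither other count by over 1.5 times.

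Over the named probes, direction and side of the threshold held in 331 of 355 settings in the first comparison and 132 of 218 in the second. They held in 34 of 48 in the third and 352 of 399 in the fourth. Fits that left out a single array made up 120 of the 331 and 129 of the 352. With the authors' deposited averages, 3 named probes held in the first comparison, 8 were weaker and 4 reversed. In the fourth, 10 held with those averages, 4 were weaker and 3 reversed.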
